A study of Mus musculus with 30 samples.

Results

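The comparison described here asks whether the effect of 1 early dose of an antibody against CD40L on the salivary gland differed between week 24 and week 8. It is the difference between 2 treatment effects: anti-CD40L minus control at week 24, less anti-CD40L minus control at week 8. Its members are the 20 arrays of those weeks, of 30 in the series, in 4 groups of 5: anti-CD40L at week 24, control at week 24, anti-CD40L at week 8 and control at week 8. All mice were NOD.H-2h4 females, a strain that develops autoimmune inflammation of the thyroid and salivary glands. When 4 weeks old, each had been injected once into the peritoneum with 20 mg/kg of antibody, either anti-CD40L or a human IgG1 isotype control. From when the weeks were counted is not stated in the labels. Total RNA of the whole salivary gland was hybridised to 1 Affymetrix mouse genome expression array per sample. The labels call the samples biological replicates and do not name the animal of each. A further 10 arrays from week 16 entered the model to estimate the spread. They also counted in the choice of the probe set of each gene and of the genes tested.

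CD40L (gene Cd40lg) is carried by activated T cells and binds CD40 on B cells, macrophages and dendritic cells. Through this pair T cells help B cells to form germinal centres, switch antibody class and mature into plasma cells. In glands of mice and patients with Sjögren-like disease, B and T cells can gather into organised clusters, and plasma cells secrete IgA there also in health. In whole tissue, fewer cells of a type and less RNA per cell cannot be told apart.

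Values are log2 levels, so a difference of 1 is a doubling. A difference between treatment effects below 0 means that anti-CD40L minus control was lower at week 24 than at week 8. Errors of differences are standard errors (SE) from limma over all 30 arrays. Benjamini-Hochberg adjustment of p-values ran over the 12999 genes tested, and a gene was called at an adjusted p under 0.05. The number of arrays limits the precision: the median SE was 0.196 for the difference between the effects, and 0.139 for the effect at week 24 and at week 8. The antibody's target pair comes first. Cd40lg lay between 4.46 and 5.28 on all 20 arrays, under the array medians, and was not tested. Cd40 averaged 6.09 ± 0.35 in anti-CD40L glands and 6.68 ± 0.29 in controls at week 24, and 6.47 ± 0.26 in anti-CD40L glands and 6.70 ± 0.23 in controls at week 8 (SD, n = 5). Cd40 fell at week 24 (-0.59 ± 0.16, limma adjusted p = 0.0229), and its effect at week 8 was -0.23 ± 0.16 (adjusted p = 0.474). Its difference between the effects was -0.35 ± 0.22, with an interval of -0.81 to 0.10 (limma adjusted p = 0.962).

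Measures other than the treatment were uneven over the 4 groups. Amy1, the amylase of parotid tissue, was over 12 on 2 anti-CD40L and 2 control arrays of week 24, and on all 5 anti-CD40L and 3 control arrays of week 8. The 3' minus 5' difference of 2 control transcripts (Gapdh and beta-actin), which is larger in more degraded RNA, averaged 0.200 ± 0.036 in anti-CD40L and 0.406 ± 0.121 in control arrays at week 24 (SD, n = 5; two-sided exact permutation p = 0.00794, adjusted over 6 tests 0.0238). At week 8 it averaged 0.369 ± 0.099 in anti-CD40L and 0.567 ± 0.198 in control arrays (exact permutation p = 0.0635, adjusted 0.127). By their median correlation with the other arrays, control replicate 1 of week 24 and control replicates 3 and 4 of week 8 stood apart. They also had the highest 3' minus 5' differences (0.61, 0.651 and 0.859), so these measures marked the same arrays. The median correlation at week 24 averaged 0.98475 ± 0.00187 in anti-CD40L and 0.97852 ± 0.00559 in control arrays (SD, n = 5, exact permutation p = 0.00794, adjusted 0.0238). For week 8 it was 0.98013 ± 0.00769 in anti-CD40L and 0.97201 ± 0.0123 in control arrays (exact permutation p = 0.27, adjusted 0.405). Markers of the gland were high in all groups: the acinar water channel Aqp5 lay between 10.89 and 12.02, and the actin of myoepithelial cells Acta2 between 10.81 and 12.27.

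**Figure D1:**
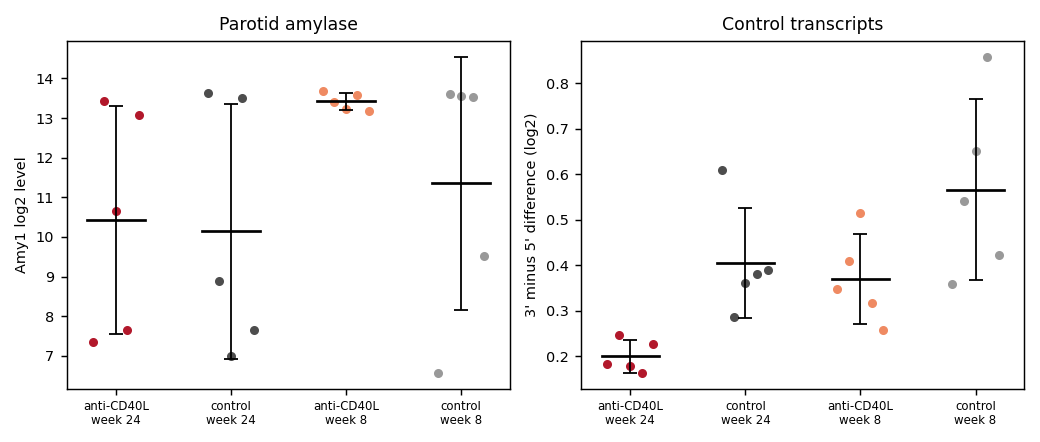
Log2 level of Amy1 (left) and 3' minus 5' difference of control transcripts (right) on each of the 20 arrays; points are arrays, bars are means ± SD (n = 5). All 5 anti-CD40L arrays of week 8 lie at 13.18 or above for Amy1, whereas the other groups spread from 6.58 to 13.64.

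One gene was called. Prg2, the major basic protein best known from eosinophil granules, had a treatment effect that was lower at week 24 than at week 8. Of 12999 genes tested 1 was called for the difference between the effects, or 0.00769%: 1 lower (0.00769%) and 0 higher (0%). At an unadjusted p under 0.05 there were 759 genes (5.84%), 272 lower (2.09%) and 487 higher (3.75%). The effects that make up the difference held more calls. At week 24 there were 1229 called genes (9.45%), 454 of them lower (3.49%) and 775 higher (5.96%). At week 8 there were 9 called genes (0.0692%), all lower. These comparisons share arrays with the difference between them and are given as its parts.

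**Figure D2:**
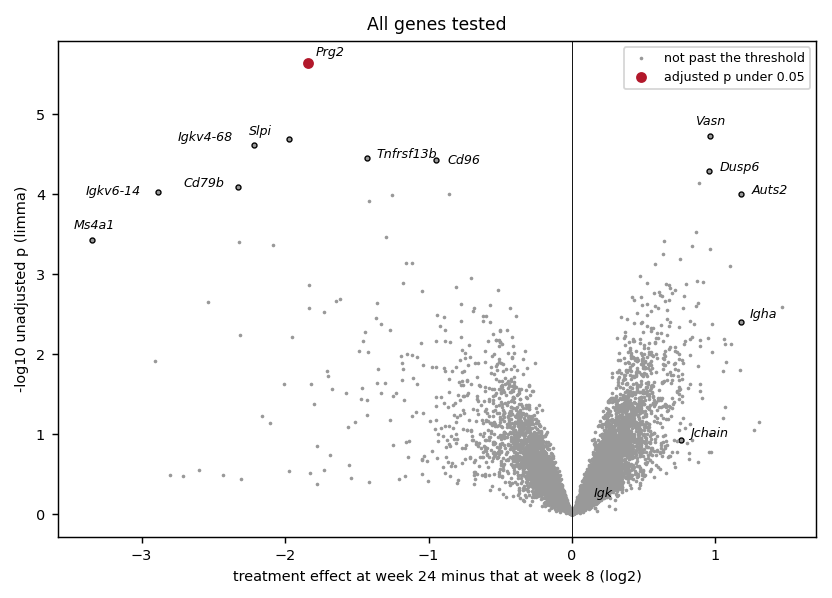
Difference between the treatment effects (x axis, log2) against -log10 of the unadjusted p (y axis) for the 12999 genes tested. The called gene, Prg2, is the large red point at -1.84; the other genes labelled in the plot, from Ms4a1 at -3.34 to Igha at 1.18, did not pass the threshold.

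Prg2 stood at 4.52, 5.10, 5.62, 4.64 and 4.69 in the anti-CD40L glands of week 24, against 6.37, 7.29, 6.65, 6.10 and 7.33 in the controls of that week. At week 8 it stood at 3.75, 3.94, 3.98, 3.76 and 4.09 in anti-CD40L glands, against 3.61, 3.88, 4.09, 3.99 and 3.91 in controls. The groups did not overlap at week 24 and overlapped at week 8. The treatment effect was -1.83 ± 0.22 at week 24 (limma adjusted p = 6.03e-05) and 0.01 ± 0.22 at week 8 (adjusted p = 0.989). The difference between them was -1.84 ± 0.31, with a 95% interval of -2.48 to -1.20 (adjusted p = 0.0302). From week 8 to week 24 Prg2 rose by 1.01 ± 0.22 in anti-CD40L glands (adjusted p = 0.00331) and by 2.85 ± 0.22 in controls (adjusted p = 3.02e-09). Over all genes, 16.5% rose between these weeks in anti-CD40L glands and 8.49% in controls.

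The level of Prg2 was low. It was above the median of its array on 1 anti-CD40L and all 5 control arrays of week 24, and on 0 arrays of week 8 in either group. The array holds 1 probe set for it. Of the 10 mast cell and eosinophil genes listed, 5 were tested, and Prg2 was the member called. The others tested, the mast cell genes Cma1, Tpsb2, Kit and Cpa3, had differences between the effects of 0.33, 0.19, -0.10 and 0.05. Among genes of eosinophils, the peroxidase Epx lay between 4.12 and 4.75, the chemokine receptor Ccr3 between 3.47 and 4.00 and the lectin Siglecf between 3.20 and 3.73 on the 20 arrays. Prg3, the homolog of Prg2, lay between 4.27 and 5.12. These 4 genes were below the filter and their groups overlapped at both weeks.

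The call of Prg2 was close to the threshold. It ended without any 1 of 12 of the 20 arrays, namely anti-CD40L replicates 1, 4 and 5 and control replicates 3 and 5 of week 24, and anti-CD40L replicates 1 to 5 and control replicates 1 and 5 of week 8. Over the 20 fits without 1 array the value stayed between -2.02 and -1.69 and the adjusted p between 0.00315 and 0.107. Without the 3 arrays that stood apart the adjusted p was 0.0597, and it was 0.0505 when only the 20 arrays were fitted. When of these weeks only the 12 arrays with Amy1 over 12 were kept, with 2 per group at week 24, the value was -1.25 ± 0.23 (adjusted p = 0.688). Array weights gave an adjusted p of 0.114.

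The other genes named by lowest p did not pass. On the low side they were Slpi, Igkv4-68, Tnfrsf13b, Cd96, Cd79b, Igkv6-14 and Rcsd1. Slpi, a secreted inhibitor of leukocyte proteases, was uniform in the week 24 controls, at 10.74, 10.66, 10.89, 10.84 and 10.95. In the anti-CD40L glands of that week it stood at 7.98, 9.53, 8.80, 8.37 and 9.01, all below the controls. At week 8 it lay between 8.06 and 8.84 in anti-CD40L glands and between 8.09 and 9.06 in controls. Slpi fell at week 24 (-2.08 ± 0.27, limma adjusted p = 0.000119), while its effect at week 8 was -0.10 ± 0.27. The difference between the effects was -1.97 ± 0.39 (adjusted p = 0.0791). It passed with Amy1 as a covariate (-1.79 ± 0.32, adjusted p = 0.0396) and without anti-CD40L replicate 2 of week 24 (-2.17 ± 0.37, adjusted p = 0.0132). On the arrays with Amy1 over 12 it was -1.10 ± 0.43.

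Tnfrsf13b encodes TACI, a receptor of B cells for the survival factors BAFF and APRIL. It stood at 5.23, 5.86, 4.84, 5.28 and 5.13 in anti-CD40L glands of week 24, against 6.90, 7.22, 6.33, 6.23 and 6.68 in controls. At week 8 the anti-CD40L glands lay between 4.67 and 5.34 and the controls between 4.79 and 5.07. The difference between the effects was -1.43 ± 0.29 (limma adjusted p = 0.0814). All 5 week 24 controls were above every other array of the 4 groups. From week 8 to week 24 Tnfrsf13b rose by 1.77 ± 0.21 in controls (adjusted p = 3.47e-06) and had a change of 0.34 ± 0.21 in anti-CD40L glands (adjusted p = 0.218). The other 3 tested genes of the BAFF and APRIL system had differences between the effects of -1.11 ± 0.29 (Tnfrsf17, BCMA, a receptor of plasma cells), -0.89 ± 0.29 (Tnfrsf13c, the BAFF receptor) and -0.41 ± 0.22 (Tnfsf13b, BAFF itself). All 4 fell at week 24, against 3.49% of all genes tested, and 0 were called at week 8 or for the difference between the effects.

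Cd79b is one of the chains that pass on signals of the B cell receptor. It stood at 4.73, 5.20, 4.83, 5.03 and 4.82 in anti-CD40L glands of week 24, against 7.98, 8.74, 6.63, 6.29 and 7.93 in controls. At week 8 it lay between 4.59 and 5.37 in anti-CD40L glands and between 4.595 and 6.12 in controls. The week 24 controls spread widely, with replicates 3 and 4 the lowest, and still did not overlap with the anti-CD40L glands. The difference between the effects was -2.33 ± 0.51 (limma adjusted p = 0.102). Its partner chain Cd79a had -1.42 ± 0.32 (adjusted p = 0.113).

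Of the 15 B cell genes tested, 14 had a difference below 0 and 10 an unadjusted p under 0.05, with a list median of -0.95. Over all genes tested, 5737 (44.1%) were below 0, 2.09% were lower at an unadjusted p under 0.05, and the median was 0.029. A gene high on the 5 week 24 controls alone could pass the filter on low values, so counts and medians over tested genes describe a list and support nothing about it. Without the filter 19 of 20 B cell genes were below 0, with a median of -0.92. None of the 15 tested was called for the difference between the effects. At week 24, 12 of the 15 fell, against 3.49% of all genes tested, and at week 8 0 were called. Ms4a1, the surface antigen CD20, had the lowest value of all genes, -3.34 ± 0.83 (adjusted p = 0.272), and is named for that after its value was seen. It stood at 4.78, 5.38, 4.87, 4.93 and 4.56 in anti-CD40L glands of week 24, against 9.90, 9.97, 7.33, 6.51 and 9.33 in controls. A second probe set of Ms4a1, at a low mean level of 3.31, gave -0.68. Also well below 0 were Bank1, a scaffold of B cell receptor signalling (-1.83 ± 0.51), and Cd22, an inhibitory receptor (-0.95 ± 0.32), while the transcription factors Pax5 (-0.29 ± 0.16) and Ebf1 (0.05 ± 0.20) were near 0.

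The mean log2 level of the 15 genes lay between 5.46 and 5.79 in anti-CD40L glands of week 24 and between 6.03 and 7.62 in controls. At week 8 this mean lay between 5.44 and 5.78 in anti-CD40L glands and between 5.37 and 5.89 in controls. In this mean the week 24 controls lay above the other 3 groups, and among them replicate 4 was the lowest. The filter favours that order, since a gene high on those controls alone could pass it, so the mean describes the list only. Without replicate 4 of the week 24 controls 9 genes were called, among them Ms4a1 (-3.87 ± 0.76, limma adjusted p = 0.041), Cd79a, Cd79b, Tnfrsf13b, Ighg3 and Btla, an inhibitory receptor of lymphocytes. Without anti-CD40L replicate 2 of that week 7 genes were called, among them Slpi, Tnfrsf13b, Igkv4-68 and Igkv6-14. On the arrays with Amy1 over 12 the B cell median was -0.65, with 13 of 15 below 0.

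**Figure D3:**
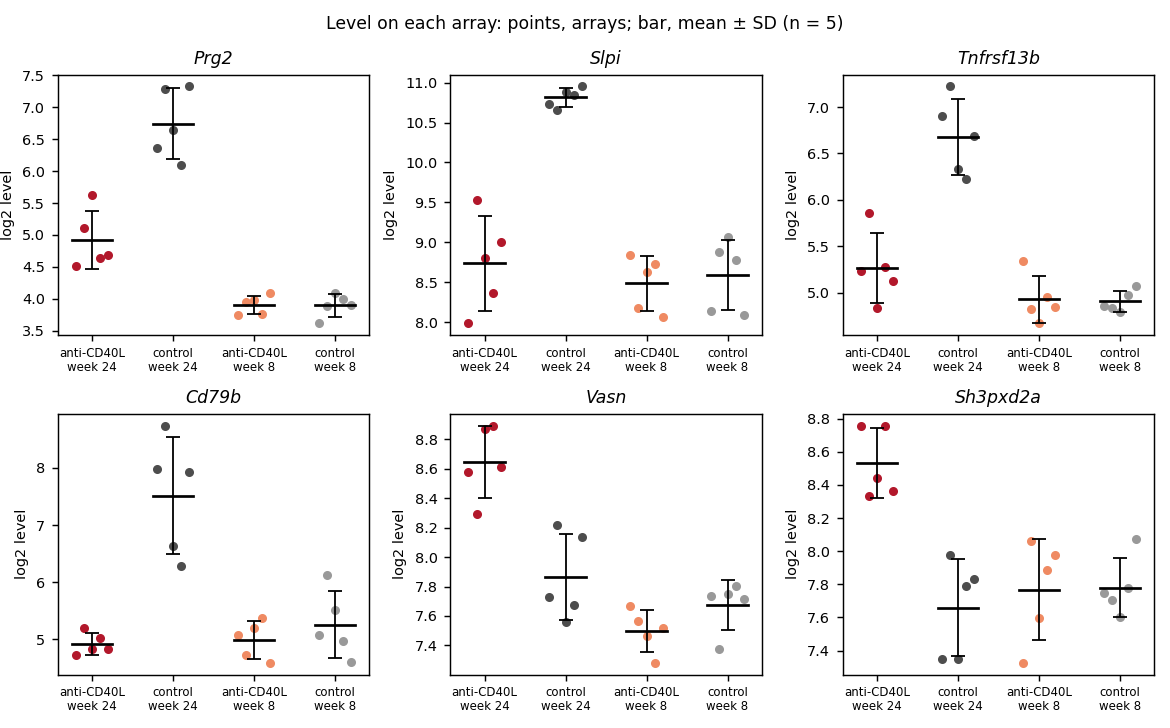
Log2 level of 6 genes on each of the 20 arrays; points are arrays, bars are means ± SD (n = 5). For Prg2, Slpi, Tnfrsf13b and Cd79b the controls of week 24 lie above the other 3 groups. For Vasn and Sh3pxd2a the anti-CD40L glands of week 24 do.

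For the 5 antibody constant and joining chain genes tested, the called effects lay at different weeks. The difference between the weeks passed for none of these 5 (limma, lowest adjusted p 0.272, that of Ighg3). The IgM and IgG heavy chains Ighm and Ighg3 fell at week 24 and were not called at week 8, where the effect of Ighm was -1.08 ± 0.77. The IgA heavy chain Igha fell at week 8 and was not called at week 24, and the J chain and the kappa chain fell at both. In this list of 5 tested genes 2 were below 0 for the difference between the effects, 0 were called, and the median was 0.09. The 2 below 0 were Ighm and Ighg3, so the median near 0 covers values of both signs. All genes of this list are given, 3 of them (Ighm, Igk and Jchain) named after their values were seen.

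Ighg3, an IgG heavy chain, stood at 6.22, 6.15, 5.998, 5.99 and 6.04 in anti-CD40L glands of week 24, against 8.56, 10.28, 7.61, 7.16 and 9.80 in controls. The week 8 arrays lay between 6.10 and 6.88 in anti-CD40L glands and between 6.01 and 7.81 in controls. Its difference between the effects was -2.32 ± 0.58 (limma adjusted p = 0.272). The 3 other probe sets of Ighg3 gave 0.28, 0.11 and 0.01, at low mean levels of 3.44, 3.57 and 4.84, against 6.67 for the one used. Ighm, the IgM heavy chain, averaged 8.78 ± 1.57 in anti-CD40L glands and 12.76 ± 0.54 in controls at week 24, and 8.03 ± 0.43 in anti-CD40L glands and 9.11 ± 1.66 in controls at week 8 (SD, n = 5). Its difference was -2.91 ± 1.09 (adjusted p = 0.663), and all 11 of its probe sets were below 0. On the arrays with Amy1 over 12 the difference was -1.16 for Ighm and -1.26 for Ighg3.

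Igha, the IgA heavy chain, stood at 12.36, 13.18, 13.24, 12.77 and 12.88 in anti-CD40L glands of week 24, against 13.02, 13.40, 13.45, 13.60 and 13.54 in controls. Its week 8 levels were 9.23, 9.32, 8.22, 9.07 and 8.97 in anti-CD40L glands, against 11.53, 11.38, 10.52, 10.07 and 9.76 in controls. The groups were separate at week 8 and overlapped at week 24. Igha fell at week 8 (-1.69 ± 0.27, limma adjusted p = 0.00291), and its effect at week 24 was -0.51 ± 0.27 (adjusted p = 0.194). The difference between the effects was 1.18 ± 0.38, above 0, and did not pass (adjusted p = 0.557). Other probe sets of Igha gave 0.855 and 0.285, at mean levels of 11.38 and 10.49, against 11.795 for the one used. From week 8 to week 24 Igha rose by 3.93 ± 0.27 in anti-CD40L glands (adjusted p = 1.15e-10) and by 2.75 ± 0.27 in controls (adjusted p = 1.66e-07).

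Jchain, which joins IgA and IgM into polymers, fell at both weeks. It averaged 10.77 ± 0.71 in anti-CD40L glands and 12.56 ± 0.19 in controls at week 24, and 7.25 ± 0.30 in anti-CD40L glands and 9.81 ± 0.98 in controls at week 8 (SD, n = 5). Its difference between the effects was 0.76 ± 0.48 (limma adjusted p = 0.962), and 1.74 on the arrays with Amy1 over 12. Igk, the kappa chain, likewise fell at both weeks, with an effect of -1.24 ± 0.23 at week 24 and -1.33 ± 0.23 at week 8, and its difference was 0.09 ± 0.32. With the median over its 4 probe sets that difference was -1.04. The receptor that carries polymeric IgA into saliva, Pigr, had 0.20 ± 0.31 (adjusted p = 0.998), and a second probe set gave -0.09.

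Among the variable genes, Igkv4-68 and Igkv6-14 had the lowest p-values. Igkv4-68 stood at 4.33, 6.06, 5.86, 4.84 and 5.09 in anti-CD40L glands of week 24, against 7.27, 7.29, 7.63, 8.09 and 7.29 in controls. At week 8 all 10 arrays lay between 4.19 and 4.45, under the array medians. Its difference between the effects was -2.22 ± 0.44 (limma adjusted p = 0.0791), and it passed when only the 20 arrays were fitted (± 0.34, adjusted p = 0.0251). Igkv6-14 had -2.89 ± 0.63 (adjusted p = 0.102), with week 24 levels between 4.26 and 6.81 in anti-CD40L glands and between 7.82 and 9.46 in controls. Igkv8-30 had the opposite sign, 1.06 ± 0.41 (adjusted p = 0.679), and had an effect of -1.26 ± 0.29 at week 24 and -2.32 ± 0.29 at week 8, both called. It is named after its values were seen. Related variable genes can cross-hybridise, and the probe sets of this family are uncertain in that respect.

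**Figure D4:**
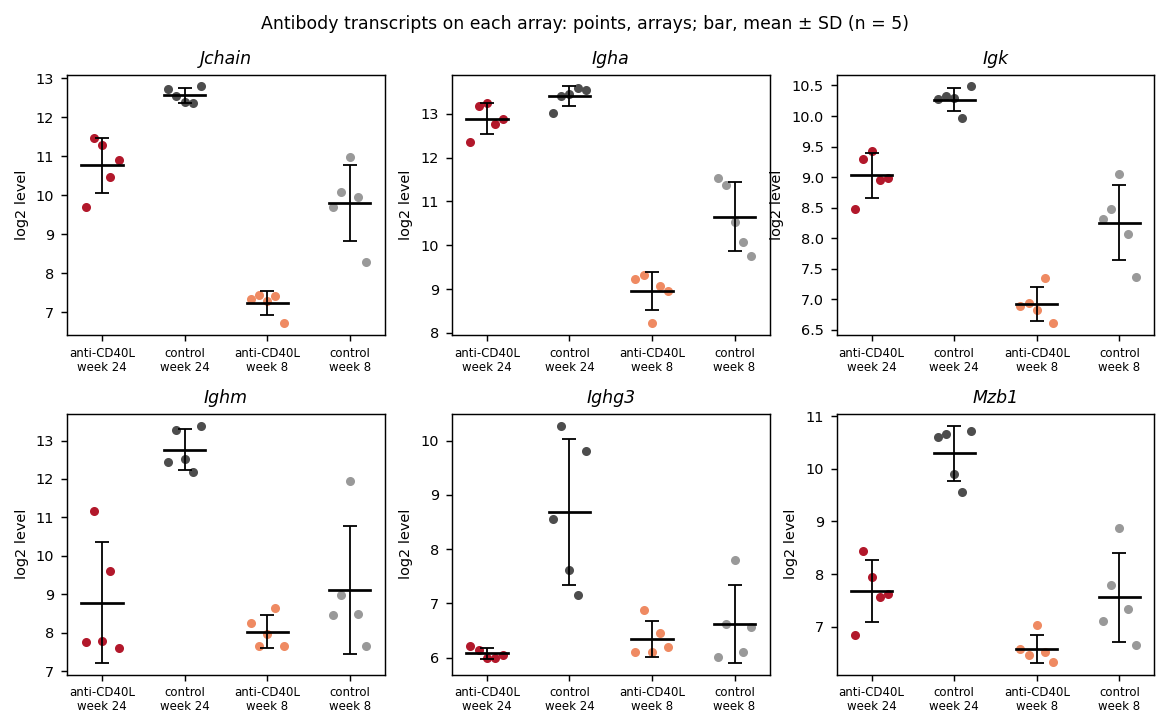
Log2 level of 6 antibody-related genes on each of the 20 arrays; points are arrays, bars are means ± SD (n = 5). For Jchain and Igk the anti-CD40L glands lie below all controls of the same week at both weeks, and for Igha at week 8 only. For Ighm, Ighg3 and Mzb1 the groups of week 8 overlap and those of week 24 do not.

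Among the 12 plasma cell genes tested 11 were below 0, with a median of -0.17, 4 at an unadjusted p under 0.05 and 0 called. The 4 that fell at week 24, against 3.49% of all genes tested, include Tnfrsf13b and Tnfrsf17, for which the filter favours a fall at that week. Mzb1, a chaperone of antibody-secreting cells named after its values were seen, averaged 7.68 ± 0.58 in anti-CD40L glands and 10.29 ± 0.53 in controls at week 24. At week 8 it averaged 6.58 ± 0.27 in anti-CD40L glands and 7.56 ± 0.84 in controls (SD, n = 5). The difference between its effects was -1.64 ± 0.49 (limma adjusted p = 0.491), and -0.64 on the arrays with Amy1 over 12. The plasma cell median was -0.10 without anti-CD40L replicate 1 of week 24 and -0.11 without replicate 4 of that group.

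T cell genes and MHC class II genes had values on the same side. All 14 T cell genes tested were below 0 (median -0.76), 9 of them at an unadjusted p under 0.05, with 0 called. Without the filter 17 of 19 were below 0, with a median of -0.62. At week 24, 8 of the 14 fell, against 3.49% of all genes tested, and at week 8 0 were called. As for the B cell genes, the filter could favour such a count, which describes the list only. Cd96, a receptor of T and natural killer cells that is in neither list, stood at 5.17, 5.21, 5.19, 4.93 and 4.86 in anti-CD40L glands of week 24, against 5.57, 6.29, 5.504, 5.78 and 6.12 in controls. Week 8 levels lay between 5.18 and 5.496 in anti-CD40L glands and between 4.95 and 5.39 in controls. Its difference between the effects was -0.95 ± 0.19 (limma adjusted p = 0.0814). Cd6, a T cell co-receptor, had -0.62 ± 0.19 and Cd3d, a chain of the T cell receptor complex, -1.95 ± 0.66 (adjusted p = 0.619), Cd3d at -1.01 on the arrays with Amy1 over 12. Rcsd1, which binds the actin-capping protein, had -0.86 ± 0.19 (adjusted p = 0.102), and 1 of its 3 other probe sets gave 0.14.

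Of the 12 MHC class II genes, 11 were below 0 (median -0.83), 6 at an unadjusted p under 0.05 and 0 called. H2-DMb2, which helps to load class II molecules with peptide, had -1.61 ± 0.48 and H2-Eb2 -0.69 ± 0.21. The median on the arrays with Amy1 over 12 was -0.49 for T cell genes (12 of 14 below 0) and -0.39 for class II genes (10 of 12). Lymphoid chemokine and vessel genes had a median of -0.74 over 6 tested genes, 4 of them below 0. Without the filter the median was -0.32 over 9 genes, 6 of them below 0. Ltb, a cytokine that organises lymphoid tissue, had -1.25 ± 0.56 and Cxcl13, the chemokine that draws B cells into follicles, -1.17 ± 0.54. On the arrays with Amy1 over 12 these were -0.34 for Ltb and -0.08 for Cxcl13, and the list median was -0.03. Of 11 germinal centre and follicular helper T cell genes only 4 were tested, with a median of -0.16.

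The CD40 and NF-kB list had 8 of 9 genes below 0 and a median of -0.17. On the arrays with Amy1 over 12, 5 of 9 were below 0, with a median of -0.27. Without 1 array 5 to 8 were below 0, and the median lay between -0.32 (without control replicate 4 of week 24) and -0.13 (-0.26 without control replicate 2 and -0.31 without control replicate 5 of that week). Nfkbia, the inhibitor that NF-kB itself induces, had -0.42 ± 0.14 (limma adjusted p = 0.619), and its 5 probe sets lay between -0.57 and -0.42. Tnfaip3, another such inhibitor, had -0.40 ± 0.17, and a second probe set gave 0.18.

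Interferon and myeloid lists lay below 0 over all arrays, and their sign turned on the arrays with Amy1 over 12. The interferon gamma list had 12 of 12 genes below 0 and a median of -0.45, or 16 of 17 and -0.27 without the filter. Over all genes tested 44.1% were below 0. At an unadjusted p under 0.05 in limma 0 of the 12 were lower, against 2.09% of all genes tested. On the arrays with Amy1 over 12, 0 of 12 were below 0, with a median of 0.43. For the type I interferon list, 15 of 18 were below 0 with a median of -0.59, against 3 of 18 and 0.43 on those arrays. Over all arrays 3 genes of this list were lower and 1 higher at an unadjusted p under 0.05. Its strongest member was Oas1a, an antiviral RNA sensor, at -1.27 ± 0.42 (limma adjusted p = 0.601), which had -0.21 ± 0.43 on those arrays. The median over the 20 macrophage and dendritic cell genes was -0.41 over all arrays and 0.08 on those with Amy1 over 12. Over the 9 cytotoxic lymphocyte genes it was -0.49 over all arrays and 0.01 on those. Neither list had a called gene. At an unadjusted p under 0.05, 0 macrophage and dendritic cell genes and 1 cytotoxic lymphocyte gene were lower. Without control replicate 5 of week 8 the macrophage and dendritic cell median was -0.21. The mean level of the interferon gamma list lay between 6.57 and 7.62 in anti-CD40L glands and between 7.09 and 8.45 in controls at week 24. On week 8 arrays it lay between 6.25 and 6.61 in anti-CD40L glands and between 6.03 and 8.22 in controls, with replicate 3 the highest. That replicate is 1 of the 3 arrays that stood apart. It is also 1 of the 3 week 8 controls with Amy1 over 12, beside replicates 2 and 4 at 6.595 and 6.14. Whether the signs turn on those arrays without it was not tested. With only control replicate 3 of week 8 left out, the interferon gamma median was -0.73 and that of type I interferon -0.72. That of the cytotoxic list was -0.77 and that of the macrophage and dendritic cell list -0.59. The interferon gamma median was -0.27 without control replicate 4 of week 8 and -0.29 without control replicate 5 of week 24. Without the 3 arrays that stood apart it was -0.68.

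**Figure D5:**
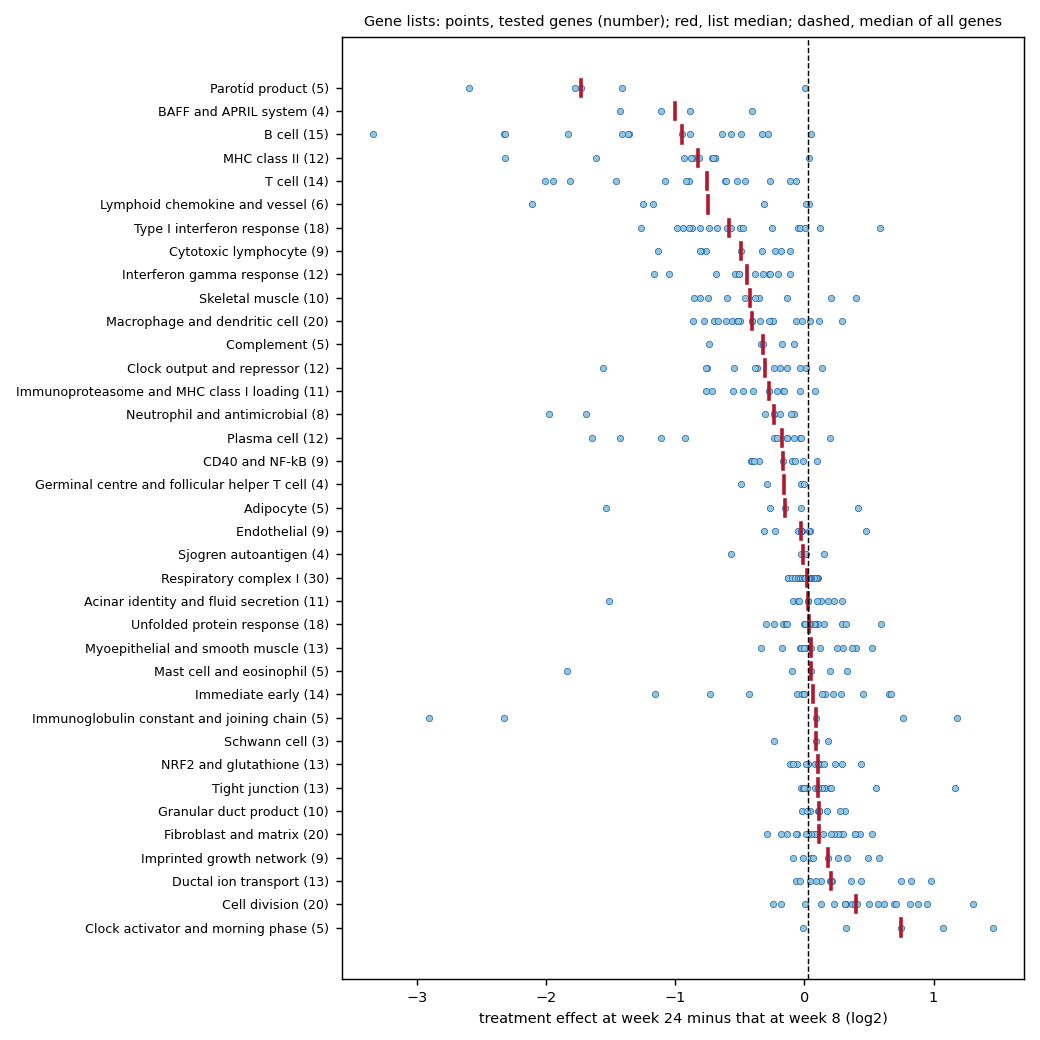
Difference between the treatment effects (x axis, log2) for the tested members of each list with at least 3 of them (rows, number tested in brackets); points are genes, red bars list medians, the dashed line the median of all genes, 0.029. B cell, T cell and MHC class II genes lie mostly left of the line, cell division and clock activator genes mostly right of it.

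On the high side no gene was called, and the 8 genes of lowest p were Vasn, Dusp6, Sh3pxd2a, Auts2, Tmigd1, Lpp, Nr2f1 and Tjp3. Vasn, a secreted and membrane protein that binds TGF-beta, stood at 8.58, 8.29, 8.87, 8.89 and 8.61 in anti-CD40L glands of week 24, against 7.73, 8.22, 7.56, 7.68 and 8.14 in controls. Earlier, at week 8, it lay between 7.28 and 7.67 in anti-CD40L glands and between 7.38 and 7.81 in controls. The groups were separate at week 24 only. Its difference between the effects was 0.96 ± 0.19 (limma adjusted p = 0.0791), and it passed without anti-CD40L replicate 2 of week 24, control replicate 2 of week 24 or control replicate 2 of week 8 (lowest adjusted p = 0.0132). A second probe set of Vasn gave 0.295, and with the median over both the difference was 0.63 ± 0.15 (adjusted p = 0.218). From week 8 to week 24 Vasn rose by 1.15 ± 0.13 in anti-CD40L glands (adjusted p = 3.19e-06) and had a change of 0.19 ± 0.13 in controls (adjusted p = 0.352).

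Dusp6, a phosphatase that switches off ERK, had an effect above 0 at week 24 and one below 0 at week 8. It stood at 10.82, 10.91, 11.09, 10.64 and 10.64 in anti-CD40L glands of week 24, against 10.51, 10.68, 10.47, 10.61 and 10.24 in controls. Its week 8 levels were 9.97, 9.84, 9.54, 9.80 and 9.41 in anti-CD40L glands, against 10.42, 10.40, 10.62, 9.92 and 10.39 in controls. Neither effect was called (0.32 ± 0.14 at week 24, adjusted p = 0.131; -0.64 ± 0.14 at week 8, adjusted p = 0.109), and the groups overlapped at both weeks. The difference was 0.95 ± 0.20 (limma adjusted p = 0.0959), and it passed without control replicate 4 of week 8 (1.06 ± 0.19, adjusted p = 0.0435).

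Sh3pxd2a, a scaffold of podosomes, had 0.88 ± 0.19 (adjusted p = 0.102), and a second probe set gave 0.42. Sh3pxd2a lay between 8.33 and 8.76 in anti-CD40L glands and between 7.35 and 7.98 in controls at week 24, and overlapped at week 8. Auts2, a chromatin regulator, had 1.18 ± 0.26 (adjusted p = 0.102), and its 4 other probe sets gave between 0.21 and 0.52. Lpp, a protein of focal adhesions, had 0.64 ± 0.16, with 3 of its 7 other probe sets below 0 (-0.16 the lowest). Nr2f1, a nuclear receptor, had 0.84 ± 0.21, and the adhesion molecule Tmigd1 0.87 ± 0.21. Tmigd1 was lower at week 24 than at week 8 in controls (-0.81 ± 0.15, limma adjusted p = 0.00141) and had a change of 0.06 ± 0.15 in anti-CD40L glands. Over all genes 4.01% fell between these weeks in controls.

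Tjp3, the junction protein ZO-3, stood at 8.06, 7.83, 7.65, 8.24 and 7.68 in anti-CD40L glands of week 24, against 6.57, 7.23, 6.95, 6.96 and 6.77 in controls. Levels at week 8 lay between 6.79 and 7.74 in anti-CD40L glands and between 6.86 and 7.61 in controls. It rose at week 24 (0.995 ± 0.17, limma adjusted p = 0.00197), and the difference between the effects was 0.96 ± 0.24 (adjusted p = 0.29). Of 13 tight junction genes 10 were above 0, with a median of 0.11 and 0 called. Over all genes tested, 7261 of 12999 were above 0. Cldn1, a claudin, had 1.17 ± 0.46, and 0.58 on the arrays with Amy1 over 12. Of its 3 other probe sets, 2 lay near the floor, at mean levels of 3.18 and 3.23, and gave -0.06 and -0.05. The third, at a mean level of 6.28, gave 0.91. Among 13 genes of ductal ion transport 11 were above 0, with a median of 0.21. Foxi1, the transcription factor of ionocytes, had 0.98 ± 0.31 (adjusted p = 0.563) and Scnn1g, a subunit of the epithelial sodium channel, 0.75 ± 0.28. Both rose at week 24, beside a lower 3' minus 5' difference in the anti-CD40L arrays. With that difference as a covariate, 23 genes were called for the effect at week 24, against 1229 without it. Prg2 kept its call for the difference between the effects under it (limma adjusted p = 0.0421). The 3' minus 5' difference, anti-CD40L minus control, was -0.206 at week 24 and -0.197 at week 8. A covariate that enters as a linear term, with a gap so alike at both weeks, could hardly move the value of the difference between the effects. The kept call therefore says nothing about RNA quality, whose part in that difference was not tested. At an unadjusted p under 0.05 in limma there were 1005 genes for that difference with the covariate, against 759 without it.

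The clock activators and the genes of cell division had the highest medians among lists with at least 3 tested genes. Of 5 clock activator and morning phase genes 4 were above 0 (median 0.75), and 3 rose at week 24, against 5.96% of all genes tested. Arntl, the core activator BMAL1, had 1.46 ± 0.44 (limma adjusted p = 0.491), though its second probe set gave -0.02 and the arrays with Amy1 over 12 gave 0.83. Nfil3, a transcription factor with a daily rhythm, had 1.07 ± 0.40. Nfil3 stood at 8.97, 7.77, 8.19, 8.95 and 7.92 in anti-CD40L glands of week 24, against 7.33, 7.42, 7.06, 6.67 and 7.04 in controls, with both groups between 8.18 and 9.38 at week 8. Clock output and repressor genes lay the other way, 10 of 12 below 0 with a median of -0.30, with Ciart, a clock repressor, at -0.75 ± 0.34. Of 20 cell division genes 18 were above 0, against 7261 of 12999 over all genes tested. Their median was 0.40, 0 were called, and only 1 had an unadjusted p under 0.05. That was Cdc20, an activator of mitotic exit (0.50 ± 0.22), while Pbk, a mitotic kinase, had 1.31 ± 0.70.

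Several lists of gland cells had medians near 0, while that of ductal ion transport was 0.21. The medians near 0 were 0.03 over 11 acinar genes, 0.11 over 10 granular duct genes, 0.05 over 13 myoepithelial genes and 0.11 over 20 fibroblast and matrix genes, with 0 called in each. Pdgfra, a receptor of fibroblasts, had 0.52 ± 0.23. Parotid products had a median of -1.73 over 5 genes, made of -0.28 at week 24 and 1.45 at week 8. Their error was large: Bpifa2, a parotid secretory protein, had -1.73 ± 1.59. The median lay between -2.38 and -0.80 without 1 array, the value nearest 0 without control replicate 1 of week 8. It was nearer 0 by over 1.5 times also without anti-CD40L replicate 1 (-1.003) or 4 (-1.11) or control replicate 1 (-0.90) or 4 (-1.08) of week 24. Skeletal muscle genes had 8 of 10 below 0 and a median of -0.42, which was 0.17 on the arrays with Amy1 over 12, -0.64 without anti-CD40L replicate 2 of week 24 and -0.26 without control replicate 2 of that week. The highest mean muscle level at week 24 was that of replicate 2 in either group, 6.72 in anti-CD40L and 7.002 in control glands. Respiratory complex I genes were tightly grouped, all 30 between -0.13 and 0.11.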

How the data were processed

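Log2 expression values of 30 arrays were used as deposited; they ran from 2.757 to 14.457, with array medians of 5.487 to 5.537. limma is named, without a version, in the submitters' processing notes. The probe summary and the normalization behind the deposited log2 values are not given in the sources used here, and nothing was added to them. The labels' protocols give 2 ug of total RNA as the input to labelling.

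Of 45101 probe sets 64 were array controls, 34958 had 1 gene symbol, 932 had several and 9211 were not named here. Each of 18194 genes was represented by its probe set with the highest mean, and 12999 genes above their array's median on at least 5 arrays were tested. limma 3.58.1 in R 4.3.3 fitted 1 mean per group to all 30 arrays, with no block. On simulated shifts the same code was tested before use. Array measures were compared with exact permutation tests, whose smallest p for 5 against 5 is 0.00794. No 2 arrays were duplicates (highest correlation 0.99375). P-values measure the spread between the labelled biological replicates.

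The comparison, the 39 gene lists (546 genes, 404 tested) and the rule for named genes were chosen with earlier results of these data known. The rule names Cd40lg and Cd40, called genes, the 8 lowest p in each direction, and called members or the 2 lowest p of each list; genes outside it are said to be named after their values were seen, except comparators of a gene or list under description. Alternatives covered normalization, filters, probe set choice, array weights, covariates, replicate block, arrays that stood apart and each array left out. One alternative, keeping arrays with Amy1 over 12, was chosen after seeing the data. No sequence or position is given, since no result rests on one.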

Additional observations from a re-analysis of the deposited data

Results flagged for a closer look

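Prg2 was set aside because its treatment effects differed between the weeks, by -1.84 on the log2 scale. In 21 of 368 groups of 5 arrays (92 genes in 4 groups, 5.71%) the array at one end lay far from the other 4; chance gives about 1 in 20. Replicate 2 of the anti-CD40L glands of week 24 accounts for 7 of these. It was high for Cfb (6.403, others 5.68 to 5.87), the mitotic kinase Pbk (8.20, others 6.99 to 7.34), the complex I genes Ndufa13 (12.21, others 12.05 to 12.09) and Ndufc1 (11.85, others 11.68 to 11.72) and the muscle gene Pvalb (6.34, others 5.11 to 5.43). It was low for the chaperone Dnajb9 (10.66, others 11.02 to 11.11) and the kallikrein Klk1b24 (11.89, others 12.50 to 12.74). In the same group replicate 5 was low for Lpl (10.05, others 10.53 to 10.67).

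Among controls of week 24, Cfb was low in replicate 4 (5.84, others 6.36 to 6.51), Arntl high in replicate 1 (6.03, others 5.02 to 5.26) and Pvalb high in replicate 2 (7.47, others 5.94 to 6.35). Among anti-CD40L glands of week 8, Jchain was low in replicate 5 (6.72, others 7.30 to 7.45), Pvalb low in replicate 3 (5.19, others 5.52 to 5.598) and Lpl low in replicate 1 (9.90, others 10.25 to 10.39).

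Controls of week 8 held the rest. Replicate 2 was low for Vasn (7.38, others 7.71 to 7.81) and Nr2f1 (5.13, others 5.53 to 5.65). Replicate 3 was high for Igkv6-14 (4.88, others 3.96 to 4.09) and H2-D1 (12.52, others 11.91 to 12.08). Replicate 5 was low for Lyz1 (10.28, others 11.82 to 12.41) and the collagen Col6a3 (8.01, others 8.73 to 8.80), and replicate 4 for Cldn1 (6.34, others 7.44 to 7.57).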

How the results depend on the processing

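Prg2 kept its sign under every alternative that tested it. Of 91 named genes 10 changed sign on the arrays with Amy1 over 12, 3 of 85 with the median over probe sets, 2 without arrays that stood apart and 1 with array weights. Igk (0.09, with the median over probe sets -1.04) and Sox10 (0.19, on the arrays with Amy1 over 12 -0.155) were among them. With 1 array left out Igk and Sptan1 changed sign. None of these genes was called for the difference between the effects. Another 34 were nearer 0 by over 1.5 times on the arrays with Amy1 over 12. For the difference between the effects the count of 1 called gene became 0 under the 70th percentile filter (which removed Prg2), the replicate block, array weights, the fit without arrays that stood apart and the fit with Amy1 over 12, 2 with Amy1 as a covariate and 3 with the median over probe sets (Prg2, Iglv1 and Igkv19-93). With 1 array left out it lay between 0 and 9. When only the 20 arrays were fitted the gene called was Igkv4-68 in place of Prg2.

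At week 24 the 1229 calls became 232 with only the 20 arrays, 1888 with Amy1 as a covariate, 23 with the 3' minus 5' covariate, 632 without arrays that stood apart and 0 with Amy1 over 12. With 1 array left out they ranged from 237 (without control replicate 1 of week 24) to 2140 (without control replicate 2 of week 24). They were also moved by over 1.5 times without control replicate 3 (514) or 4 (1929) of week 24, or anti-CD40L replicate 1 (527), 3 (698), 4 (397) or 5 (676) of week 24. Quantile normalization gave 633 higher and 676 lower in place of 775 and 454. At week 8 the 9 calls became 4 with only the 20 arrays, with the median over probe sets and with the replicate block, 43 with array weights, 20 with Amy1 as a covariate, and 3 with the 3' minus 5' covariate and without arrays that stood apart. They ranged from 4 to 23 with 1 array left out, the highest without control replicate 1 of week 8. Except for the filter, the cause was not tested.

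Same-numbered arrays did not deviate together over the 4 groups: of 30 such pairs 9 had deviations correlated over 0.1 (median r -0.07, from -0.63 to 0.40). All 5 pairs of control at week 24 with anti-CD40L at week 8 did (0.12 to 0.37), and in the other pairs of groups at most 2 of 5 did. The 2 groups differ in both treatment and week, and nothing in the labels ties their numbers. With the number as a block Prg2 had an adjusted p of 0.0522. The planned fit to arrays with Amy1 under 10 could not be run, since 0 anti-CD40L arrays of week 8 qualified. Low signals, as for Prg2 at week 8, limit differences near the floor of the array.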

Other observations

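At week 16, which is no part of the difference described, Prg2 stood at 4.12, 3.91, 4.05, 3.82 and 4.05 in anti-CD40L glands, against 5.56, 5.46, 4.73, 5.91 and 4.93 in controls. The groups did not overlap there. The mean level of the 15 B cell genes at week 16 lay between 5.32 and 5.51 in anti-CD40L glands and between 5.46 and 6.53 in controls, with control replicates 1 and 4 at 6.29 and 6.53 and the other 3 between 5.46 and 5.52.

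Secretory products were uneven within the anti-CD40L glands of week 24. Ltf, the iron-binding protein lactoferrin, stood at 5.80, 11.33, 11.43, 5.18 and 11.45 in them, against 8.89, 10.24, 10.69, 11.48 and 10.37 in controls of that week. Dcpp1, a demilune cell and parotid protein, stood at 9.79, 13.43, 13.59, 8.77 and 13.67 in them, while all 15 arrays of the other 3 groups lay between 13.26 and 13.73. Replicates 1 and 4 were the low ones for both genes, and they also had the lowest Amy1 of their group (7.34 and 7.65). Control replicates 3 and 5 of week 24 had Amy1 as low (7.01 and 7.65), with Ltf at 10.69 and 10.37. Their Dcpp1, and that of control replicate 1 of week 8 (Amy1 6.58), lay within the range of the other 3 groups. The cause was not tested. The difference between the effects was -1.69 ± 1.24 for Ltf and -1.51 ± 0.81 for Dcpp1, and neither passed in limma (lower adjusted p of the pair 0.913, that of Dcpp1).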
